A study of Mus musculus with 12 samples.

Results

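The guanylate-binding proteins (Gbp) were examined as 9 listed genes, Gbp2, Gbp3, Gbp4, Gbp5, Gbp6, Gbp7, Gbp8, Gbp9 and Gbp10, matched by symbol among the 34678 gene symbols measured in 12 subcutaneous tumors. The genes were chosen by family name with their levels in these tumors already known, so the differences between arms given for them are a description and no independent evidence of a direction. All tumors grew from LLC1-shLkb1 cells, a Lewis lung carcinoma line of C57BL/6 origin carrying a short hairpin against Lkb1 (Stk11), in C57BL/6 mice of 5 to 8 weeks. For 2 weeks the mice received vehicle, the CDK4/6 inhibitor palbociclib, an antibody against PD-1, or both agents, here called the combination. Palbociclib was given at 100 mg/kg by mouth and the antibody at 200 µg per animal into the peritoneum. Both were given on set days of a weekly cycle, and the paper states that control mice were injected with IgG. Each of the 4 arms had 3 tumors. Every arm, vehicle included, carried the Lkb1 knockdown in a single cell line grown under the skin, so no tumor with intact Lkb1 and none growing in the lung enters these comparisons. The library of each tumor was bulk RNA, in which fewer cells of a type and less RNA per cell cannot be told apart.

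Gbp genes encode large GTPases of the dynamin superfamily that are transcribed in response to interferons, above all interferon gamma, with IRF1 among the factors that drive them. The proteins coat the vacuoles and membranes of intracellular microbes, open them, and hand their contents to inflammasomes, and they are widely read as markers of interferon gamma action in tumors and in infiltrating leukocytes. They act beside the immunity-related GTPases, a second family of interferon-induced GTPases, and Gbp2, Gbp5 and Gbp2b carry a C-terminal prenylation signal that anchors them to membranes.

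In GENCODE M21 on GRCm38 the genes lie in 2 clusters. On the + strand of chromosome 3 stand Gbp5 (142493978 to 142522344), Gbp7 (142530342 to 142550149), Gbp3 (142560026 to 142573209) and Gbp2 (142620602 to 142638008). On the - strand of chromosome 5 stand Gbp8 (105014150 to 105139540), Gbp9 (105077630 to 105139539), Gbp4 (105115767 to 105139586), Gbp10 (105215699 to 105239533) and Gbp6 (105270702 to 105293698). Gbp10 and Gbp6 are close copies: 60.9% of the 100-base stretches of Gbp10 exons and 37.3% of those of Gbp6 also occur in another Gbp gene, against at most 4.39% for the 7 others. How fragments from such stretches were assigned is not given in the sources used here, so the levels of Gbp6 and Gbp10 are uncertain. The annotated spans of Gbp8, Gbp9 and Gbp4 overlap on the same strand, which adds to the uncertainty for those genes. However, at most 1.77% of the exonic bases of any of them are shared in place. The files also hold 2 entries under the symbol Gbp6. The entry with the higher mean is used below and the other is named where its values are given.

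RefSeq windows (GRCm38.p6) from 250 bases before to 50 after a start site were given for 4 of the genes, all on chromosome 3. They are shown because the genes varied together over the tumors, with the interferon elements searched in capitals. These are the interferon-stimulated response element (ISRE), written GAAANNGAAA or, on the other strand, TTTCNNTTTC, and the gamma-activated site (GAS), TTCNNNGAA, which reads the same on both strands.
Gbp2, chr3:142620413-142620712, + strand: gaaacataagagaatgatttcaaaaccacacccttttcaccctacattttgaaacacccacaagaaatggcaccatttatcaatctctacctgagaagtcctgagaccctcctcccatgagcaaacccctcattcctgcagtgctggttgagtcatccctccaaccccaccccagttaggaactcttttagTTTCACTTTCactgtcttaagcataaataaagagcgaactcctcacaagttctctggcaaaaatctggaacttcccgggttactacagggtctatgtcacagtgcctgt
Gbp3, chr3:142559794-142560093, + strand: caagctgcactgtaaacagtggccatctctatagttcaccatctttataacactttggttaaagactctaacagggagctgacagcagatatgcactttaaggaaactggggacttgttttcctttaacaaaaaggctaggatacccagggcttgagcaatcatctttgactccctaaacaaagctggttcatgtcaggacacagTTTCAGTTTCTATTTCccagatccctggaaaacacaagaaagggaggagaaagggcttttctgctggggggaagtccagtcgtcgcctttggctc
Gbp5, chr3:142496684-142496983, + strand: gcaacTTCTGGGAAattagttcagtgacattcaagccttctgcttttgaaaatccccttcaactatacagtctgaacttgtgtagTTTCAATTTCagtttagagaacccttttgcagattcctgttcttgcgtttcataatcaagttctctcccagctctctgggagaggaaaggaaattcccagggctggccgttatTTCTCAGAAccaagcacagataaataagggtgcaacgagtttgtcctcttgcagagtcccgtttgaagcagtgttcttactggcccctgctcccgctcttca
Gbp7, chr3:142530086-142530385, + strand: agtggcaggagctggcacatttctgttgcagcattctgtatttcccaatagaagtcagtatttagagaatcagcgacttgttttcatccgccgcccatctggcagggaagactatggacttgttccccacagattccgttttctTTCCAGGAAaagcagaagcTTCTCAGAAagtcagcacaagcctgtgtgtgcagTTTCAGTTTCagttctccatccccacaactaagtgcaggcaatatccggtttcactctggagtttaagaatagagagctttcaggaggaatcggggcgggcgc
Each of the 4 genes had an ISRE match in the window printed. It began 59 bases before the start in Gbp2, 45 and 39 bases before it in Gbp3, where 2 matches overlap, 165 before it in Gbp5 and 53 before it in Gbp7. Gbp5 and Gbp7 had 2 GAS matches each in addition. Of 32851 RefSeq windows of this length, 3.44% held an ISRE match, 8.30% a GAS match and 0.454% both. A further window at another start site of Gbp3 held neither. A match describes letters in the window and does not show that a factor binds there.

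The level of each gene is given as FPKM, fragments scaled to gene length and to library size, which allows levels to be compared between genes. Tumors were sequenced to an estimated 14900000 to 20300000 fragments, read from the spacing of low FPKM values. Gbp2 rests on an estimated 33700 fragments over the 12 tumors, and Gbp10, the least abundant member, on 544, with 5.49 in the lowest tumor, so the levels of Gbp10 carry the largest counting error. All 9 genes passed the filter of a mean FPKM of at least 0.1 that 15350 symbols passed.

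Gbp2, a prenylated protein that coats microbial vacuoles, was the most abundant member. Its FPKM was 43.8, 17.9 and 31.1 in vehicle replicates 1, 2 and 3, 91.7, 107 and 114 with palbociclib, 35.0, 26.5 and 24.1 with anti-PD-1, and 135, 41.2 and 149 with the combination. Every palbociclib tumor stood above every vehicle and anti-PD-1 tumor, and 2 combination tumors stood higher still, whereas combination replicate 2 lay within the vehicle range. Vehicle tumors averaged 30.9 ± 12.9 FPKM (SD, n = 3) and palbociclib tumors 104 ± 11.6 FPKM (SD, n = 3). Anti-PD-1 tumors averaged 28.5 ± 5.72 FPKM (SD, n = 3) and combination tumors 108 ± 58.7 FPKM (SD, n = 3). Gbp2 made up 57.9% to 70.6% of the summed FPKM of the 9 genes in each tumor. The sum itself ranged from 30.5 in vehicle replicate 2 to 211 FPKM in combination replicate 3.

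Gbp3, Gbp7 and Gbp5, the neighbours of Gbp2 on chromosome 3, stood at lower levels. As for Gbp2, the palbociclib tumors and combination replicates 1 and 3 exceeded every vehicle and anti-PD-1 tumor. The order among the palbociclib-treated tumors differed: the ratio of combination to palbociclib means was 1.04 for Gbp2, 0.741 for Gbp3 and Gbp7 and 0.886 for Gbp5. Gbp3, which is found on vacuoles together with Gbp2, was at 6.21, 4.60 and 6.10 FPKM with vehicle, 21.6, 15.4 and 25.6 with palbociclib, 9.05, 6.65 and 5.60 with anti-PD-1, and 18.0, 9.42 and 19.1 with the combination. It is 1 of 2 members, with Gbp10, in which all 6 palbociclib-treated tumors stood above all 6 others, although for combination replicate 2 the margin over anti-PD-1 replicate 1 was small. Gbp7 ranged from 2.94 to 5.35 FPKM with vehicle and from 11.2 to 12.7 with palbociclib, the tightest palbociclib arm relative to its mean after Gbp9. Gbp5, which promotes assembly of the NLRP3 inflammasome, ranged from 0.720 to 1.82 FPKM with vehicle and from 3.81 to 5.59 with palbociclib. In combination replicate 2, Gbp5 (1.39 FPKM) and Gbp7 (4.61 FPKM) were inside the vehicle range.

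The chromosome 5 genes were split between a steady and a variable kind. Gbp9 varied least: it was at 2.81, 2.47 and 3.01 FPKM with vehicle, 7.41, 7.74 and 7.89 with palbociclib, 3.41, 2.73 and 3.03 with anti-PD-1, and 5.85, 2.86 and 6.26 with the combination. Its 3 palbociclib tumors therefore stood above all 3 combination tumors, which no other member showed (9.15% of all genes tested did). Gbp4, which in mouse cells can restrain IRF7, was at 2.51, 0.853 and 1.73 FPKM with vehicle, 4.45, 8.46 and 7.23 with palbociclib, 1.85, 1.10 and 1.26 with anti-PD-1, and 11.6, 2.23 and 8.65 with the combination. Here palbociclib replicate 1 was the lowest of its arm and combination replicate 1 the highest of all tumors. Gbp8 ranged from 0.236 FPKM in vehicle replicate 3 to 3.91 in combination replicate 1, and its vehicle tumors were the most spread of any member relative to their mean, at 0.627 ± 0.545 FPKM (SD, n = 3).

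Gbp6 and Gbp10, the close copies, had the widest ranges. Gbp10 was at 0.244, 0.0920 and 0.268 FPKM with vehicle, 1.17, 0.763 and 1.31 with palbociclib, 0.136, 0.261 and 0.306 with anti-PD-1, and 2.61, 0.358 and 1.06 with the combination. Its highest tumor was 28.4 times its lowest, against 3.19 times for Gbp9. Gbp6 was at 1.71, 0.497 and 2.63 FPKM with vehicle, 6.12, 2.51 and 7.10 with palbociclib, 2.12, 1.54 and 1.77 with anti-PD-1, and 10.2, 2.45 and 7.70 with the combination. It was the exception in the palbociclib arm, where replicate 2 was below vehicle replicate 3. The second Gbp6 entry gave the opposite picture for that tumor, with 1.94, 5.10 and 2.71 FPKM in the 3 palbociclib tumors and at most 1.85 with vehicle, so the low value belongs to 1 entry of the symbol and not to both.

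**Figure D1:**
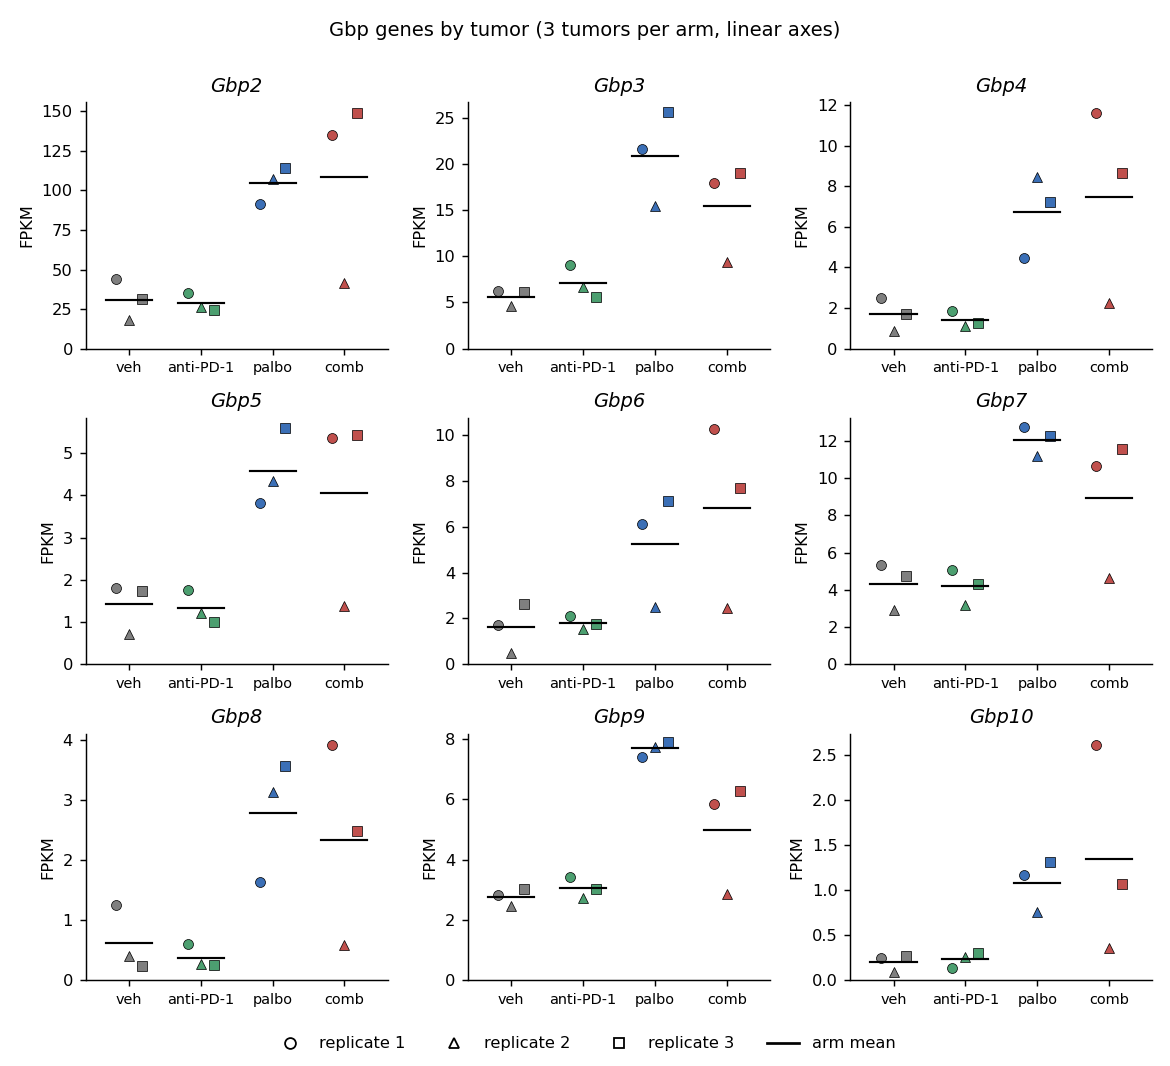
FPKM of each Gbp gene (linear vertical axes, one panel per gene) in the 12 tumors, with vehicle, anti-PD-1, palbociclib and combination on the horizontal axis, one symbol per replicate and a bar at the arm mean. Palbociclib tumors and combination replicates 1 and 3 stand above the vehicle and anti-PD-1 tumors in all panels except for palbociclib replicate 2 in Gbp6, and combination replicate 2 lies low in every panel.

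By mean FPKM over the 12 tumors the order was Gbp2 (68.1), Gbp3 (12.3), Gbp7 (7.38), Gbp9 (4.62), Gbp4 (4.33), Gbp6 (3.87), Gbp5 (2.85), Gbp8 (1.53) and Gbp10 (0.715). Gbp2, Gbp3 and Gbp7 each exceeded the next gene in 12 of 12 tumors. Gbp9 exceeded Gbp4 in 9 of 12 and Gbp4 exceeded Gbp6 in only 6 of 12, so the middle of the order was not the same from tumor to tumor.

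The first comparison asks how tumors of mice given palbociclib alone differed from vehicle tumors. All 9 genes were higher with palbociclib, by 1.44 (Gbp9) to 2.17 (Gbp8) on the log2(FPKM + 0.1) scale, with a median of 1.84 against 0.0677 over all genes tested. Ratios of mean FPKM ran from 2.78 for Gbp9 and Gbp7 to 5.37 for Gbp10. In 8 of the 9 genes, all but Gbp6, every palbociclib tumor exceeded every vehicle tumor, as did 12.9% of all genes tested. All 9 had an unadjusted limma p under 0.05 in this direction, as did 9.43% of all genes. After Benjamini-Hochberg adjustment over all genes only Gbp3 passed 0.05 (log2 difference 1.85, SE 0.28, limma adjusted p = 0.0386), where 0.137% of all genes passed upward. Gbp9 followed (1.44, SE 0.24, limma adjusted p = 0.0562), and the 7 others had limma adjusted p-values from 0.118 to 0.298. This count rests on single tumors. Without combination replicate 2, which enters only through the shared estimate of spread, 4 members passed and 46 of all genes did. Leaving out palbociclib replicate 2 or anti-PD-1 replicate 1 left 1 member, with 44 and 41 of all genes. Leaving out any of the 9 others left 0 members, but only 1 to 7 of all genes passed then.

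The palbociclib effect averages 2 differences, palbociclib minus vehicle and combination minus anti-PD-1, and so uses all 12 tumors. It was positive for all 9 genes and ranged from 1.03 for Gbp9 to 2.13 for Gbp8 on the log2(FPKM + 0.1) scale, with a median of 1.71 against 0.0552 over all genes tested. Of the 9, 3 passed upward, where 0.248% of all genes did. They were Gbp3 (1.46, SE 0.20, limma adjusted p = 0.0339), Gbp9 (1.03, SE 0.17, limma adjusted p = 0.0399) and Gbp2 (1.79, SE 0.31, limma adjusted p = 0.0462). Gbp7 (limma adjusted p = 0.0536) and Gbp4 (limma adjusted p = 0.0543) lay just outside, and the larger differences of Gbp8 and Gbp10 came with larger errors (SE 0.47 and 0.38). All 9 had an unadjusted limma p under 0.05, as did 14.1% of all genes upward. For 8 of the 9, at least 5 of the 6 palbociclib-treated tumors stood above every tumor without palbociclib, a pattern that 5.04% of all genes had.

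The number of members passing depended on which tumors entered. Without combination replicate 2 all 9 passed, as did 264 of the 15350 genes tested (231 upward). Without vehicle replicate 1, 8 members and 692 of all genes (533 upward) passed, and without anti-PD-1 replicate 1, 8 members and 758 of all genes (555 upward). Leaving out palbociclib replicate 2 left 1 member and 9 of all genes. Leaving out any of the 8 remaining tumors left 0 members, but only 0 to 10 of all genes passed then. The differences themselves stayed positive for all 9 genes under every omission.

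With anti-PD-1 alone no shift of the family was seen. Differences from vehicle ran from -0.42 (Gbp8) to 0.40 (Gbp6) on the log2(FPKM + 0.1) scale, 4 of 9 were positive, and the median was -0.028. No member passed the limma test, 0% of all genes did, and no member had an unadjusted p under 0.05, although 1289 genes did. The arms overlapped for every member. The intervals leave room for sizeable differences in the variable genes (95% confidence interval -1.87 to 1.02 for Gbp8) but less in the steady one (-0.39 to 0.67 for Gbp9).

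Adding palbociclib to anti-PD-1 gave differences from 0.62 (Gbp9) to 2.09 (Gbp8) on the log2(FPKM + 0.1) scale, with a median of 1.64. All 9 genes were higher at an unadjusted limma p under 0.05, as 7.61% of all genes were, but limma adjusted p-values were 0.327 to 0.364 and none passed (0.00651% of all genes did, in either direction). Every combination tumor exceeded every anti-PD-1 tumor for 5 genes, Gbp2, Gbp3, Gbp4, Gbp6 and Gbp10, as for 11.4% of all genes. For Gbp5, Gbp7, Gbp8 and Gbp9 combination replicate 2 overlapped the anti-PD-1 arm. Without that replicate the median difference was 2.25, and 1 gene, Gbp2, passed (2.33, SE 0.31, limma adjusted p = 0.0448).

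Against vehicle the combination differed by 0.75 (Gbp9) to 2.04 (Gbp6) on the log2(FPKM + 0.1) scale, with limma adjusted p-values from 0.184 to 0.252. None of the 9 passed (0.0130% of all genes did, in either direction), although all were higher at an unadjusted p under 0.05, as 8.64% of all genes were. Without combination replicate 2, Gbp9 alone passed (1.11, SE 0.13, limma adjusted p = 0.0260). These comparisons share their vehicle tumors with the comparison of palbociclib alone.

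**Figure D2:**
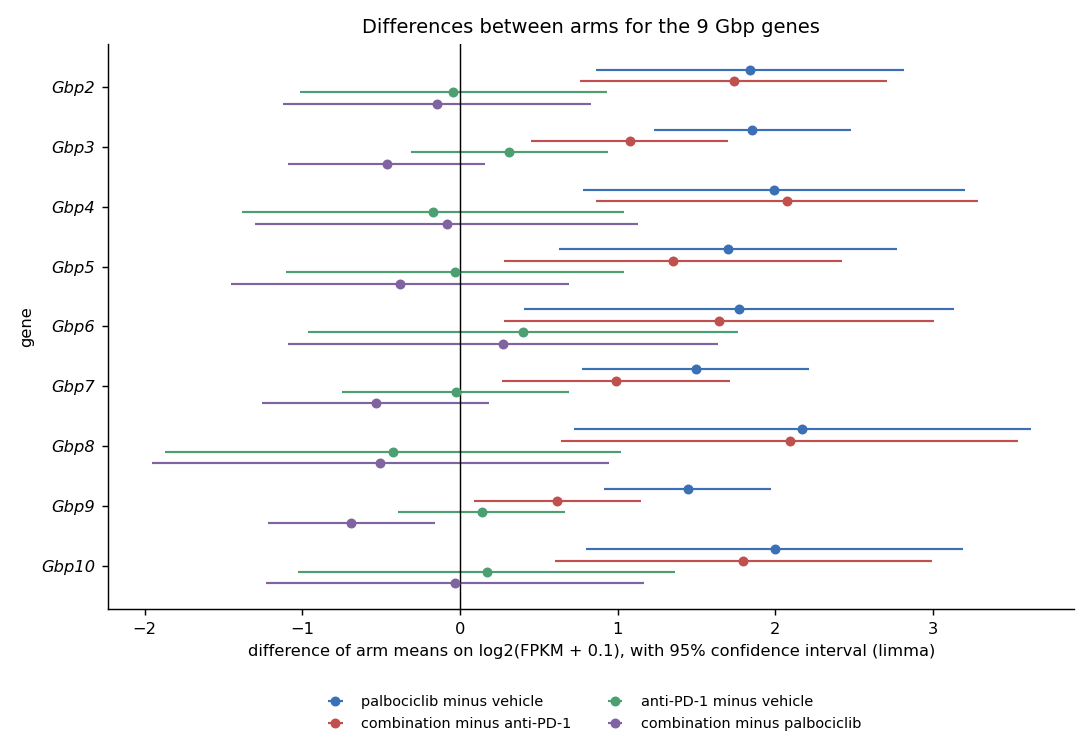
Difference of arm means on log2(FPKM + 0.1) (horizontal axis) with its 95% confidence interval from limma for each Gbp gene (vertical axis) and 4 comparisons. Both comparisons that add palbociclib lie right of 0 for all 9 genes, whereas anti-PD-1 minus vehicle spans 0 for every gene and combination minus palbociclib for all but Gbp9.

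After adjustment the combination was not separable from palbociclib alone for any member. Differences ran from -0.69 (Gbp9) to 0.27 (Gbp6) on the log2(FPKM + 0.1) scale, and none passed the limma test, as 0.00651% of all genes did. Gbp9 was the only member lower at an unadjusted limma p under 0.05, as 3.47% of all genes were (95% confidence interval -1.22 to -0.16). Without combination replicate 2 the difference of Gbp9 was -0.34, and the median of the 9 turned from -0.38 to 0.25. The interaction, which is combination minus anti-PD-1 less palbociclib minus vehicle, was passed by no member and by 0% of all genes, with 879 genes at an unadjusted p under 0.05. It was most negative for Gbp9 (-0.83, SE 0.34) and Gbp3 (-0.78, SE 0.40) and near 0 for Gbp4 (0.08, SE 0.78) and Gbp8 (-0.08, SE 0.93). Gbp9 was the only member with an unadjusted p under 0.05 here, where 3.34% of all genes were lower at that level.

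Combination replicate 2 was the lowest of its arm for all 9 genes. The mean of the other 2 combination tumors was 1.97 times its level for Gbp3, 3.45 times for Gbp2 and 5.41 times for Gbp8. Across the 12 tumors the mean z-score of the 9 genes (each gene standardised on the log2 scale) was -1.38 to -0.434 with vehicle, 0.819 to 1.19 with palbociclib, -0.922 to -0.505 with anti-PD-1, and 1.25, -0.439 and 1.07 in combination replicates 1, 2 and 3. The family thus took 2 levels, a high one in 5 palbociclib-treated tumors and a low one in the 6 tumors without palbociclib and combination replicate 2. That tumor also had the lowest Ptprc of all, the pan-leukocyte gene for CD45, at 0.841 FPKM against 1.19 to 3.36 in the others, and a summed level of 6 skeletal muscle markers of 146 FPKM, while palbociclib replicate 3, with high Gbp levels, had 151 FPKM. Their part in its low Gbp level was not tested.

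The members varied together from tumor to tumor. Over the 36 pairs Pearson's r on log2(FPKM + 0.1) across the 12 tumors was 0.736 (Gbp6 and Gbp8) to 0.986 (Gbp2 and Gbp4), with a median of 0.910. Because the tumors fall into a high and a low set, these values mostly restate that split. After subtracting arm means the median was 0.810, and with combination replicate 2 also left out it was 0.606, with the closest pair Gbp2 and Gbp5 (0.935) and the least alike Gbp9 and Gbp10 (-0.039). The correlations share libraries and depth and are a description.

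Of the remaining symbols of the family in the files, Gbp2b, the mouse gene also known as Gbp1, ranged most widely. It lies on chromosome 3 between Gbp3 and Gbp2 (142594847 to 142619179) and was at 0.869, 0 and 0.0175 FPKM with vehicle, 1.62, 4.17 and 4.55 with palbociclib, 0.0555, 0.0434 and 0.0382 with anti-PD-1, and 23.2, 0.475 and 5.68 with the combination. Its palbociclib effect was 4.36 (SE 0.83, limma adjusted p = 0.0543), the largest of the family on this scale. Gbp11, annotated as a polymorphic pseudogene, stayed under 1 FPKM throughout (0.0424 to 0.665) and had an effect of 1.24 (SE 0.34, limma adjusted p = 0.107). Gbp2-ps was listed at 0 in all 12 tumors.

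The interferon gamma pathway acts upstream of the family, and its genes were compared by the palbociclib effect. Irf1, a transcription factor that acts at Gbp promoters, had an effect of 0.73 (limma adjusted p = 0.0885) and was at 15.5 FPKM in combination replicate 2 against 36.7 and 30.4 in the other 2. Ifng itself was low, at 0 to 0.327 FPKM with vehicle, 0.307 to 0.950 with palbociclib, 0.0895 to 0.390 with anti-PD-1, and 1.91, 0.145 and 0.920 with the combination (effect 1.55, limma adjusted p = 0.172). Only an estimated 135 fragments of it were counted in all tumors together, so single tumors are imprecise. The abundant listed genes Ifngr1 (receptor chain), Jak1 (kinase) and Stat2 (transcription factor) had effects of 0.25, -0.14 and 0.38, and none of these passed. The effect of Stat2 averages unlike arms. It was at 21.3 to 30.3 FPKM with vehicle and 33.1 to 46.1 with palbociclib. With anti-PD-1 it was at 23.2 to 27.1 FPKM and with the combination at 24.3 to 28.3.

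The immunity-related GTPases were higher together with the Gbp genes. Of 14 genes listed, 11 were expressed above the filter, all 11 had a positive palbociclib effect, and 4 passed, with a list median of 1.44. Igtp rose by 1.54 (limma adjusted p = 0.0433), Irgm2 by 1.44 (limma adjusted p = 0.0399), Irgm1 by 1.15 (limma adjusted p = 0.0419) and F830016B08Rik by 1.39 (limma adjusted p = 0.0339). Igtp and the Irgm proteins guard self membranes from, or direct, the effector GTPases. Iigp1, an effector GTPase, was at 5.17 to 18.9 FPKM with vehicle and 25.5 to 41.2 with palbociclib, with an effect of 1.77 that did not pass (limma adjusted p = 0.0736). In palbociclib minus vehicle 1 of the 11 passed, F830016B08Rik (1.56, limma adjusted p = 0.0386), where 0.137% of all genes passed upward.

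Among 11179 non-member genes at a mean of 1 FPKM or more, the 10 whose log2 level correlated best with the mean z-score of the 9 Gbp genes were Irgm1, Irgm2, Tgtp1, Ifi47, Tapbpl, Igtp, Gm4951, Psme1, Iigp1 and Tgtp2, with Pearson's r from 0.973 to 0.986 over 12 tumors. All but Tapbpl, which edits peptides on MHC class I, and Psme1, a subunit of the proteasome activator PA28, are on the list of immunity-related GTPases. After subtracting arm means r was 0.903 for Psme1 and 0.973 for Gm4951. With combination replicate 2 also left out it was 0.631 and 0.947. Psme1 was far less variable than the Gbp genes, at 15.3 to 18.4 FPKM with vehicle and 24.0 to 25.3 with palbociclib.

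Type I interferon-stimulated genes, which answer interferon alpha and beta as well, parted from the Gbp genes in the arms with anti-PD-1. With palbociclib alone all 12 listed genes were higher than with vehicle, with a median difference of 1.50. Ifit2 (1.24, limma adjusted p = 0.0386) and Oasl2 (1.49, limma adjusted p = 0.0382) passed, where 0.137% of all genes passed upward. In combination minus anti-PD-1 the median of the 12 was 0.0101 with 6 positive, where the 9 Gbp genes had a median of 1.64 with 9 positive. Against vehicle, the difference was positive for all 12 type I genes with anti-PD-1 (median 0.50) and for 11 with the combination (median 0.55). Against palbociclib alone, the combination was lower for all 12 (median -1.04). Each was lower at an unadjusted limma p under 0.05, as 3.47% of all genes were. The interaction of the 12 genes was negative in every case, with a median of -1.57. Of these, 11 were lower at an unadjusted limma p under 0.05, as 3.34% of all genes were, although none passed after adjustment. The Gbp genes had an interaction median of -0.20. Isg15, a ubiquitin-like interferon product, shows the pattern by tumor: 49.5, 35.2 and 65.8 FPKM with vehicle, 182, 92.5 and 274 with palbociclib, 91.9, 78.7 and 65.0 with anti-PD-1, and 63.2, 109 and 82.3 with the combination. Combination replicate 1, the lowest of its arm for Isg15, was the highest of all tumors for Gbp4, Gbp6, Gbp8 and Gbp10. Over the 12 tumors the mean z-score of the 9 Gbp genes correlated with that of the 11 immunity-related GTPases at r = 0.989. With that of the 12 type I genes it correlated at r = 0.589. After subtracting arm means these values were 0.970 and -0.041, and with combination replicate 2 also left out 0.951 and 0.210. No test was made of the difference between the lists.

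**Figure D3:**
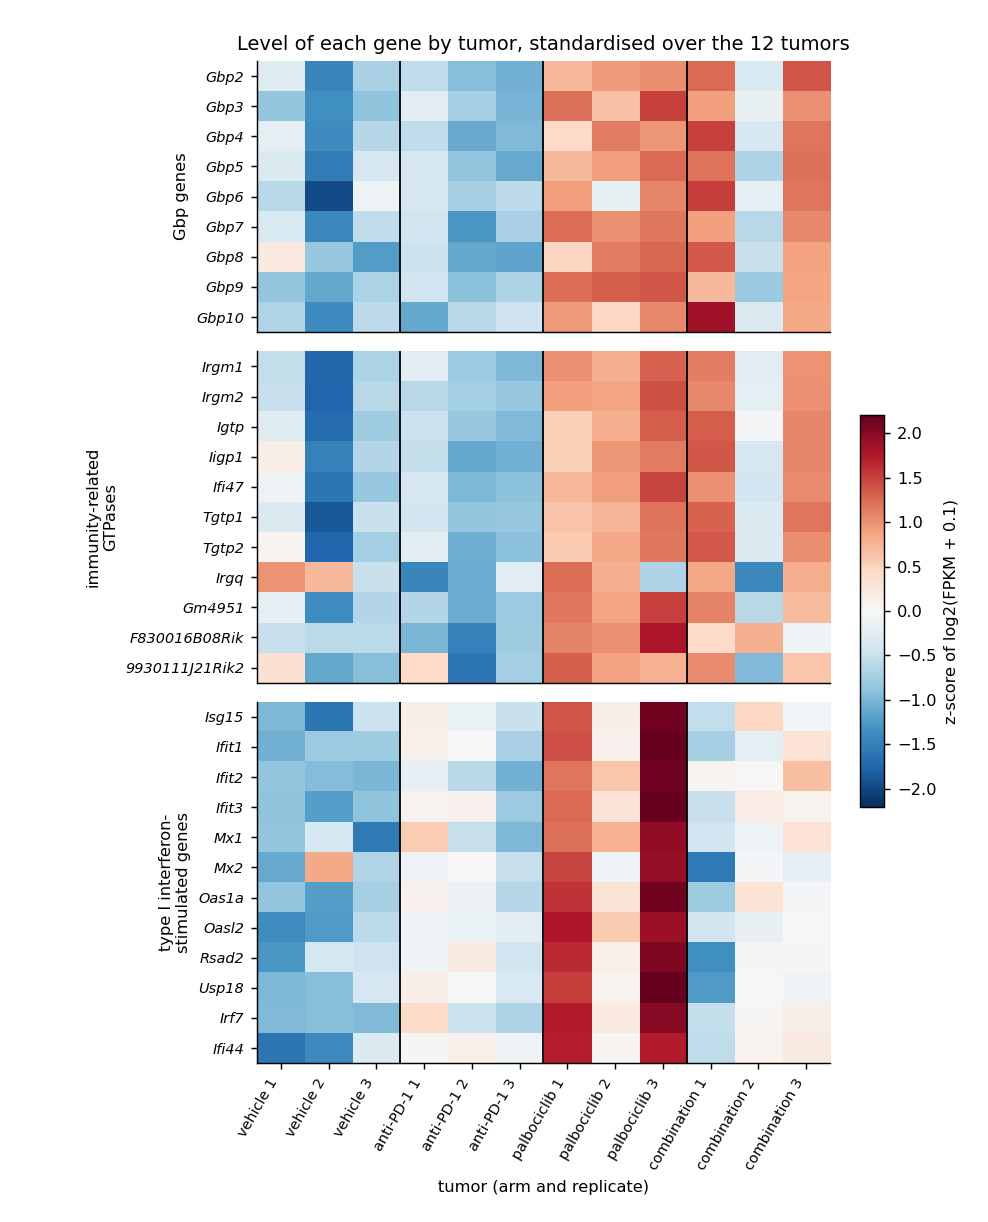
Heat map of z-scores of log2(FPKM + 0.1), standardised per gene over the 12 tumors, with genes as lines of cells in 3 blocks and tumors as columns ordered vehicle, anti-PD-1, palbociclib and combination. The Gbp genes and most immunity-related GTPases are high in the palbociclib tumors and in combination replicates 1 and 3, whereas the type I genes are highest in palbociclib replicates 1 and 3 and near or below their mean in combination replicate 1.

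No gene listed as acting with or after the Gbp proteins passed in the palbociclib effect, where 48 of 15350 genes did. Of 10 inflammasome and pyroptosis genes, 0 passed in the palbociclib effect in either direction and 7 were positive (median 0.21, range -1.71 to 1.405). At an unadjusted limma p under 0.05, 4 were higher, where 14.1% of all genes were, and 1 was lower. Casp1, the inflammatory caspase, was at 23.5 to 31.7 FPKM with vehicle and 30.2 to 45.8 with palbociclib (effect 0.70, limma adjusted p = 0.164). Gsdmd was at 12.3 to 16.7 FPKM with vehicle and 17.0 to 22.8 with palbociclib (palbociclib minus vehicle 0.55, limma adjusted p = 0.311). It was at 12.9 to 17.6 FPKM with anti-PD-1 and 12.3 to 18.9 with the combination. Casp4, the mouse caspase-11 that senses cytosolic lipopolysaccharide, had an effect of 0.08 (limma adjusted p = 0.806). Il1b was at 4.64, 4.72 and 66.8 FPKM with vehicle and 1.87 to 5.98 with palbociclib. It was at 5.06, 35.0 and 28.1 FPKM with anti-PD-1 and 2.73, 3.05 and 12.8 with the combination (effect -1.71, limma adjusted p = 0.230). Tumors of the vehicle arm and of the anti-PD-1 arm thus differed widely among themselves. The ubiquitin-like lipidation genes, whose products steer Gbp proteins to vacuoles, included 0 of 10 that passed, with a median of -0.028. Of these, Gabarap ranged only from 50.1 to 66.1 FPKM over the 12 tumors.

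Several cell type markers differed between the arms in the same order as the family. The summed FPKM of 4 T cell markers (Cd3d, Cd3e, Cd3g and Cd5) was 0.826 to 4.36 with vehicle, 4.68 to 9.71 with palbociclib, 1.05 to 2.62 with anti-PD-1 and 3.01 to 9.01 with the combination, so each arm with palbociclib stood above its counterpart. The CD8 pair Cd8a and Cd8b1 summed to 0.0674 to 1.19, 1.22 to 3.14, 0.310 to 0.988 and 1.07 to 3.62 in the same order. All 4 T cell markers had a positive palbociclib effect (median 1.42) and none passed. Of 6 dendritic cell markers 5 were tested and all 5 were positive (median 1.03), 5 of 6 macrophage markers were positive (median 0.64), and all 4 neutrophil markers were negative (median -1.69), again with none past the threshold. No marker of these lists was at 0 in every tumor. Their part in the Gbp levels was not tested.

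Combination replicate 2 ranked 6 of 12 from the lowest for the T cell sum (3.01 FPKM) and likewise 6 of 12 for the mean z-score of the Gbp genes. After subtracting arm means, the family z-score correlated with the log2 T cell sum at r = 0.853 and with the CD8 sum at r = 0.826, and without combination replicate 2 at 0.894 and 0.945. For Irf1 these values were 0.853 and 0.409, for Ifng 0.906 and 0.868, and for the natural killer cell sum 0.240 and -0.765. The points share libraries and tissue content, and the values are a description.

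**Figure D4:**
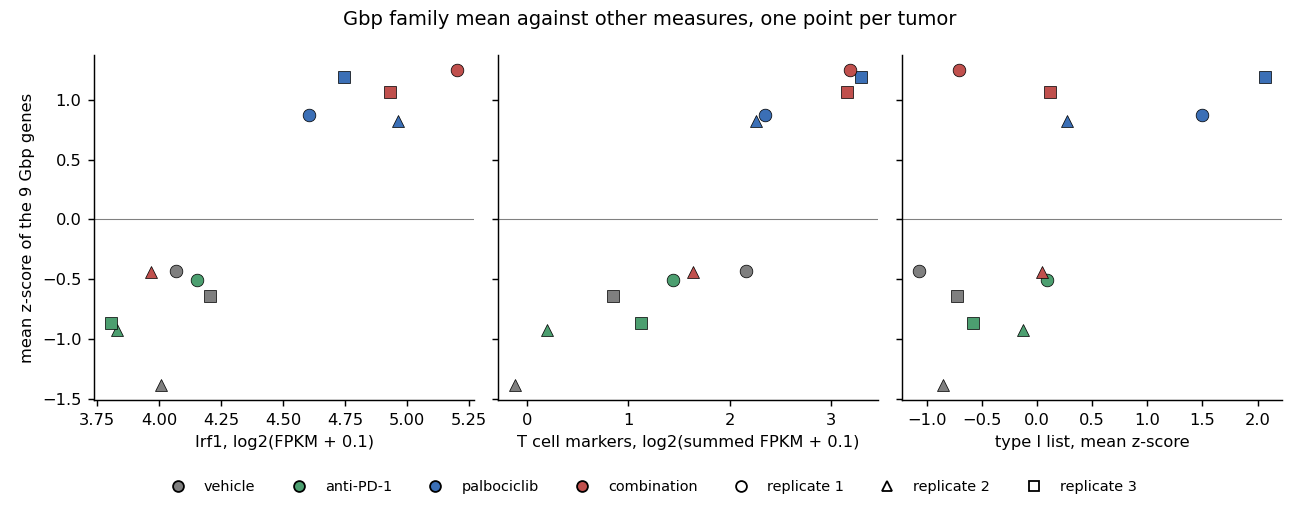
Mean z-score of the 9 Gbp genes (vertical axis) against log2(FPKM + 0.1) of Irf1, log2 summed FPKM of 4 T cell markers and the mean z-score of 12 type I interferon-stimulated genes (horizontal axes), one point per tumor, coloured by arm and shaped by replicate. Of the palbociclib-treated tumors, 5 form the upper set in each panel, and in the third panel combination replicate 1 combines the highest Gbp mean (1.25) with a type I mean below 0.

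Markers of tissue that can surround a subcutaneous tumor differed between tumors as well. Adipocyte markers summed to 1.24 to 4.39 FPKM with vehicle, 15.7 to 391 with palbociclib, 0.813 to 4.75 with anti-PD-1 and 1.29 to 943 with the combination, where replicate 1 was the highest. Keratinocyte markers reached 373 FPKM in palbociclib replicate 2 and at most 1.07 in any other tumor. Combination replicate 3, with high Gbp levels (149 FPKM for Gbp2), had adipocyte and keratinocyte sums of 1.29 and 0.0884 FPKM, the former within the vehicle range. The part of this tissue in the other values was not tested. The targeted gene Stk11 was at 7.90 to 11.5 FPKM in the 12 tumors with no knockdown-free control to set it against.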

How the data were processed

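Total RNA of 12 tumors was sequenced in bulk, and the values the authors deposited for each tumor are FPKM of 34745 entries, with no counts. HISAT2 and the builds GRCm38 and mm10 are named in the submitters' processing notes, and the counting tool, its annotation and its treatment of strand are not given in the sources used here. For 67 repeated entries the one with the higher mean was kept per symbol. Symbols were placed on GENCODE M21 (94.4% matched).

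Genes averaging 0.1 FPKM or more (15350) were transformed to log2(FPKM + 0.1) and fitted in limma 3.58.1 under R 4.3.3 (eBayes with a trend, 1 mean per arm over all 12 tumors, no covariates, two-sided, Benjamini-Hochberg adjustment over all genes, threshold 0.05), and the fit was tested on simulated data. A fold change on this scale is understated for low genes. Tumors of an arm are taken as separate mice, and p-values measure the spread between these tumors. The family, the gene lists and the comparisons were chosen with earlier results of these data known. Named genes are all Gbp symbols, the passing genes of each list with up to 4 abundant examples, Ifng and Irf1, and the 10 genes most like the family. A gene of the interferon gamma list is not reported here, and no counts are given for that list. Fragments were inferred from FPKM steps: 75.7% of 5217 low genes gave whole steps within 0.02, so the numbers are estimates. Alternatives were other pseudocounts, filters, scalings and variance priors, a replicate block, only the arms compared, each tumor left out and, chosen after seeing the data, other uses of the 2 Gbp6 entries. Python 3.11.15 with pandas 2.3.3 and matplotlib 3.10.9 was used for the rest.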

Additional observations from a re-analysis of the deposited data

How the results depend on the processing

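The direction of all 9 Gbp genes in palbociclib minus vehicle, combination minus vehicle, combination minus anti-PD-1 and the palbociclib effect was the same under every alternative tried, and the counts past the threshold were not. In palbociclib minus vehicle 1 member passed in the reported fit, and 2 passed with a filter at a mean of 1 FPKM or with TPM. With quantile normalization, with eBayes without a trend or with only the arms compared, 0 members passed. In these last settings 1, 6 and 0 of all genes passed, in that order. In the palbociclib effect 3 passed, against 5 with a filter at a mean of 1 FPKM and 1 with any gene above 0. With eBayes without a trend 0 members and 0 of all genes passed. A pseudocount of 1 lowered the family median to 1.26 in palbociclib minus vehicle, 0.959 in combination minus vehicle and 0.997 in combination minus anti-PD-1, as this setting shrinks low genes by construction. Over all genes the palbociclib effect called 48 (38 upward), against 44 (28 upward) with quantile normalization, 62 with TPM, 70 when genes under a mean of 1 FPKM were left out and 11 with any gene above 0.

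Deviations of same-numbered tumors from their arm means correlated between -0.21 and 0.45. Tumors of unlike number were not compared in this way, so these values cannot settle whether the replicate numbers pair the tumors. A replicate block let 3 members pass in palbociclib minus vehicle and 8 in the palbociclib effect, where 129 of all genes passed.

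Leaving out 1 tumor at a time gave 0 to 4 members in palbociclib minus vehicle, 0 to 9 in the palbociclib effect, 0 to 1 in combination minus vehicle and 0 to 1 in combination minus anti-PD-1. The highest count of members came without combination replicate 2 each time. Over all genes the counts were 1 to 46 in palbociclib minus vehicle and 0 to 758 in the palbociclib effect. The family median ranged from 1.25 to 2.29 in combination minus vehicle, from 1.17 to 2.25 in combination minus anti-PD-1, from -0.66 to 0.25 in combination minus palbociclib and from -0.66 to 0.45 in the interaction, with the upper end without combination replicate 2.

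Sign changes occurred only in comparisons where no member passed. In anti-PD-1 minus vehicle, quantile normalization gave 0.065 for Gbp5 and 0.029 for Gbp7, and the ranges with 1 tumor left out were -0.39 to 0.25 (Gbp2), -0.57 to 0.16 (Gbp4), -0.43 to 0.18 (Gbp5), -0.23 to 0.87 (Gbp6), -0.28 to 0.15 (Gbp7), -0.85 to 0.15 (Gbp8) and -0.13 to 0.40 (Gbp10). In combination minus palbociclib Gbp10 was 0.066 with a pseudocount of 1 and 0.15 with quantile normalization, and the ranges were -0.48 to 0.45 (Gbp2), -0.54 to 0.62 (Gbp4), -0.70 to 0.25 (Gbp5), -0.18 to 0.88 (Gbp6), -1.03 to 0.24 (Gbp8) and -0.66 to 0.62 (Gbp10). In the interaction a pseudocount of 1 gave 0.054 for Gbp6 and 0.026 for Gbp10, and the ranges were -0.44 to 0.49 (Gbp2), -0.37 to 0.79 (Gbp4), -0.67 to 0.28 (Gbp5), -0.59 to 0.50 (Gbp6), -0.66 to 0.66 (Gbp8) and -0.83 to 0.45 (Gbp10). The second Gbp6 entry, an alternative chosen after seeing the data, gave -0.23, -0.027 and 0.20 in these comparisons. The cause of these changes was not tested. Depth limits Gbp10, Gbp11 and Ifng most.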

Other observations

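Among other large GTPases related to dynamin no gene passed the limma test. Of 11 listed, 10 were tested, 0 passed in the palbociclib effect and 5 were positive, with a median of -0.013. Over all genes 48 of 15350 passed there. Gvin1, a large interferon-inducible GTPase, had the highest effect of the list (0.72, limma adjusted p = 0.197), with 0.107 to 0.533 FPKM with vehicle, 0.666 to 0.783 with palbociclib, 0.339 to 0.374 with anti-PD-1, and 0.687, 0.276 and 0.652 with the combination. As for most Gbp genes, 5 of 6 palbociclib-treated tumors stood above every tumor without palbociclib and combination replicate 2 was low. It was named after its values were seen. Dnm1l, which divides mitochondria, was at 25.2 to 36.8 FPKM with vehicle and 19.5 to 29.7 with palbociclib (effect -0.39, limma adjusted p = 0.259). Of 6 genes for protein prenylation, the modification that anchors Gbp2 and Gbp5, 0 passed and 4 were positive, with a median of 0.15.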
